A study of Rattus norvegicus with 4 samples.

Results

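Chemokines and their receptors were examined in rat liver RNA-seq data, and a gene was included when its symbol began with Ccl, Ccr, Cxcl, Cxcr, Xcl or Xcr followed by a digit, or with Cx3c or Ackr. This rule, which uses no measured value, found 53 of the 16992 annotated genes, namely 34 ligands, 17 receptors, and 2 atypical receptors. Chemokines are small secreted proteins that steer leukocytes along gradients by binding to receptors coupled to inhibitory G proteins on their surface, and they are divided by the spacing of their first cysteines into the CC, CXC, C, and CX3C classes. Some are made continuously and hold cells in place or guide routine traffic, whereas others are switched on by interferon, microbial products, or tissue damage. Atypical receptors bind chemokines without G protein signaling and remove them. In the liver, leukocytes pass through sinusoids lined by endothelial cells and resident macrophages (Kupffer cells), which both produce and respond to chemokines.

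The samples were the livers of 4 wild-type male Wistar rats, with 1 rat and 1 library for each condition. Rats inhaled sevoflurane (4.5%) or desflurane (6%), which are halogenated anesthetic agents, and were sacrificed after 6 hours of anesthesia or, as the control of the same agent, right after they lost consciousness. The rats were purchased at 6 weeks of age, and no genetic modification was reported. Since the controls lost consciousness under the agent, they had also inhaled it briefly, so that no liver came from a rat without anesthetic. With 1 library per condition there was no replicate check, no p-values were calculated, and every comparison below is a comparison of single livers. Expression is given as transcripts per 1000000 (TPM) in the deposited scale, which takes gene length into account, and a gene was called higher or lower when its TPM value was above 2 in the higher library and differed by more than 2-fold. Where 4 values follow each other, they are those of the sevoflurane control, sevoflurane at 6 hours, the desflurane control, and desflurane at 6 hours. Each 6 hour library was set against the control of its own agent and against the other control.

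The depth of the libraries, derived from the ratio of coverage to FPKM, was between 4.47 and 5.40 Gb of aligned sequence, and members expressed at 1 to 4 TPM were covered by a median of 3.0 to 4.67 reads per base. Read counts were not used here, and no counting intervals were calculated. The 8 hepatocyte marker genes summed to between 133467 and 150192 TPM. The 11 Kupffer cell and macrophage markers summed to 809 (control) and 485 (6 hours) with sevoflurane and 641 (control) and 757 (6 hours) with desflurane.

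Among the 53 genes, those above 1 TPM numbered 25 (control) and 22 (6 hours) with sevoflurane and 25 (control) and 21 (6 hours) with desflurane. These are between 39.6% and 47.2% of the group, compared with 60.6% to 62.0% of all annotated genes. In total, 28 genes exceeded 1 TPM in at least 1 library and 18 did so in all 4 libraries, and the 28 genes comprised 20 ligands, 6 receptors, and both atypical receptors. The limit of 2 TPM was passed by 21 genes in at least 1 library, and all 21 passed it in the sevoflurane control. The 25 genes outside the 28 never exceeded 1 TPM. Their highest value was 0.794, for *Ccl26*, and *Ccl20*, *Cxcl2*, *Cxcl3*, *Cxcl6*, and *Cxcr1* were listed at 0 in all 4 libraries.

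The chemokine RNA of these livers came mostly from 3 ligands, *Ccl9*, *Ccl6*, and *Cxcl12*, which together made up between 91.6% and 92.8% of the summed TPM values of the group. *Ccl9* and *Ccl6* are rodent CC chemokines of myeloid cells that act on Ccr1, and they are neighbors on chromosome 10 (rn6, 70783426 to 70788309 and 70798118 to 70802750, minus strand). *Ccl9* was the most abundant member in every library, with TPM values of 961 (control) and 712 (6 hours) with sevoflurane and 791 (control) and 770 (6 hours) with desflurane, and it ranked 99 among all annotated genes by TPM in the sevoflurane control. It was 1.35-fold lower with sevoflurane and 1.03-fold lower with desflurane than in the respective controls. *Ccl6* had TPM values of 386, 159, 243, and 264 in the same order. The 6 hour sevoflurane liver was thus the lowest and its control the highest, and the desflurane livers lay between them. *Ccl6* was 2.43-fold lower with sevoflurane than in its own control and 1.53-fold lower than in the desflurane control. With desflurane, it was 1.09-fold higher than in its own control and 1.46-fold lower than in the sevoflurane control. The receptor *Ccr1* remained between 0.228 and 0.539 TPM in the 4 libraries, far below both ligands on this per-length scale.

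*Cxcl12*, a constitutive ligand that retains leukocytes and progenitor cells in tissues through Cxcr4, had TPM values of 205 (control) and 197 (6 hours) with sevoflurane and 257 (control) and 199 (6 hours) with desflurane. Its level differed by at most 1.31-fold between any of the libraries, and the desflurane control stood above the other 3. The TPM value of this gene was between 1.331 and 1.475 for each unit of coverage, compared with 0.534 to 0.605 for the other members above 1 TPM. *Cxcr4* was at 1.99, 1.77, 0.799, and 1.28 TPM in the same order of libraries. *Ackr3*, an atypical receptor that removes Cxcl12, was at 4.24, 4.61, 2.84, and 2.96 TPM. Both receptors were thus higher in the sevoflurane control than in the desflurane control, by 2.49-fold for *Cxcr4*, which did not reach 2 TPM, and by 1.49-fold for *Ackr3*, and neither was called in any comparison.

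**Figure D1:**
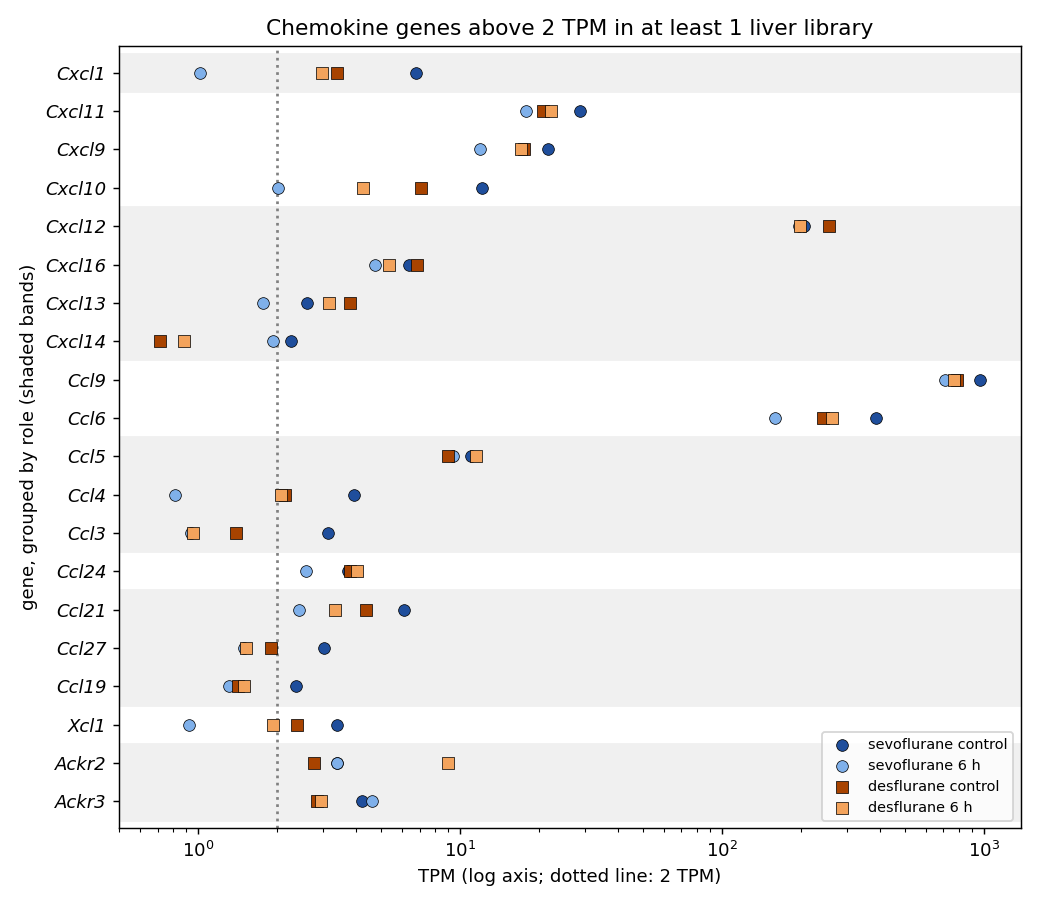
TPM values (log axis) of 20 chemokine and chemokine receptor genes above 2 TPM in at least 1 library, with 1 point for each of the 4 libraries and 1 rat per library; shaded bands separate roles and the dotted line marks 2 TPM. *Ccl9*, *Ccl6*, and *Cxcl12* lie at or above 159 TPM in all libraries. The 6 hour sevoflurane library is the lowest of the 4 in 16 of the 20 genes. For all genes above 2 TPM in at least 1 library, this share was 26.9%. All 20 genes passed 2 TPM in the sevoflurane control, 4 of them only there, so that the choice of genes favors those high in that library.

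In the comparison of 6 hours of sevoflurane with its own control, 8 chemokine genes were lower and none was higher. The lower genes were *Cxcl1*, *Cxcl10*, *Ccl4*, *Xcl1*, *Ccl3*, *Ccl21*, *Ccl6*, and *Ccl27*, all of them ligands. They were 8 of the 21 members that were above 2 TPM in either library, or 38.1%, whereas 3.30% of all 9754 genes above this level were called lower and 2.23% were called higher. Only 1 of the 21 members was a receptor and 2 were atypical receptors, so that few genes other than ligands could be called. In all 53 members, 33 had a lower value than in the control, 13 had a higher value, and 7 had equal values. Among the members above 1 TPM in some library, 82.1% were lower, compared with 44.1% of all genes selected in the same way. For the 28 members above 1 TPM in some library, the median log2 change, after 1 was added to the TPM values, was -0.39, compared with 0.04 for the 10873 genes selected in the same way. Against the desflurane control, 5 members were called lower after 6 hours of sevoflurane (*Cxcl1*, *Cxcl10*, *Ccl4*, *Xcl1*, and *Cxcl13*) among 17 above the limit, and none was higher, with 2.59% of all genes called lower and 2.52% called higher. The median log2 change was then -0.31. Both comparisons use the same 6 hour library, and the lists are therefore not separate measurements.

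After 6 hours of desflurane, no chemokine gene was called lower than in its own control among the 17 members above the limit, and 1 gene, *Ackr2*, was called higher. Among all genes, 1.48% were called lower and 2.79% higher in this comparison. Of the 53 members, 27 had lower and 18 had higher values, and the median log2 change of the 28 genes above 1 TPM was -0.09, compared with 0.11 for all genes selected in the same way. Lower values were found for 60.7% of the 28 genes and for 34.2% of all genes selected in this way. Against the sevoflurane control, 4 members were called lower (*Cxcl10*, *Cxcl1*, *Ccl3*, and *Cxcl14*) and *Ackr2* was called higher among 21 above the limit, with 1.58% of all genes called lower and 2.84% higher, and the median was -0.37. The choice of the control thus moved the count of lower members from 0 to 4. The difference between the agents has no test, since each state is represented by 1 liver.

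The control livers differed from each other as well. *Ccl3* and *Cxcl14* were called lower in the desflurane control than in the sevoflurane control, and no member was called higher, whereas 1.17% of all genes were called in each direction. Over the 28 members, the desflurane control differed from the sevoflurane control by a median log2 value of -0.31, compared with -0.02 for all genes. Since all 21 members passed 2 TPM in the sevoflurane control, 4 of them only there, the order of the libraries was counted in the 13 members above 2 TPM in all 4 libraries, a choice made after the data were seen. The sevoflurane control held the highest value for 6 of these (18.0% of all 9136 genes selected in this way), the 6 hour sevoflurane library held the lowest for 10 (25.9% of all genes), and both 6 hour values lay below both controls for 6 (13% of all genes). When the 6 hour libraries were set against each other, *Ackr2*, *Ccl4*, *Cxcl1*, and *Cxcl10* were called higher with desflurane than with sevoflurane among 16 members above the limit, and none was lower, with 2.76% of all genes called higher and 1.17% lower.

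**Figure D2:**
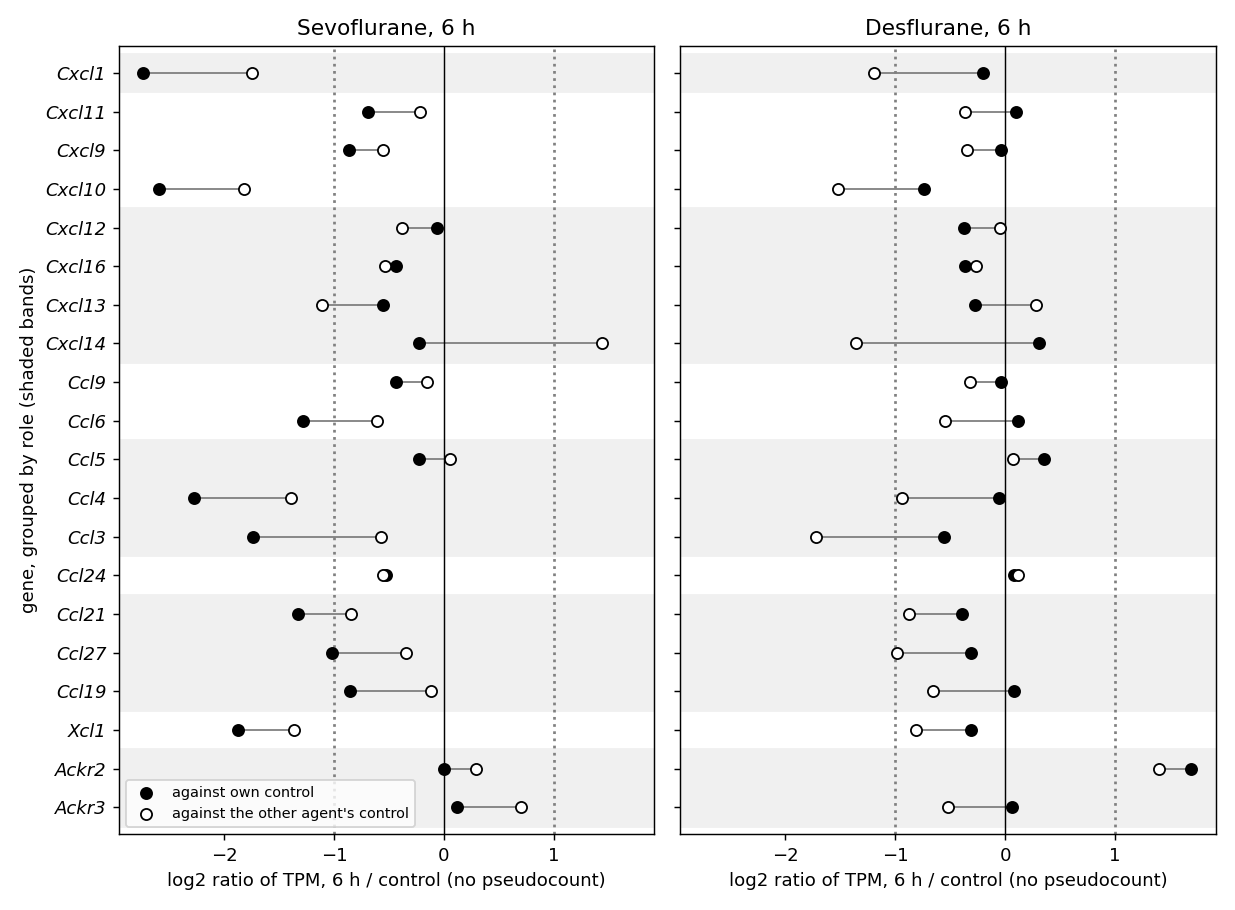
Log2 ratio of TPM values (no pseudocount) of each 6 hour library to the control of its own agent (filled points) and to the control of the other agent (open points) for 20 genes above 2 TPM in at least 1 library; dotted lines mark 2-fold. *Cxcl1*, *Cxcl10*, *Ccl4*, and *Xcl1* lie beyond 2-fold on the lower side with sevoflurane against both controls, and *Ackr2* lies beyond 2-fold on the higher side with desflurane against both controls.

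The neutrophil-attracting ligand *Cxcl1*, which acts on Cxcr2, and the interferon-induced ligand *Cxcl10*, which attracts activated T and NK cells through Cxcr3, had the largest decreases with sevoflurane against its own control among the members above 2 TPM. With assembled in place of annotated rows, whose ends differed for both genes in the 6 hour library, the decreases were 3.51-fold for *Cxcl1* and 4.28-fold for *Cxcl10*, and *Ccl4*, at 4.83-fold, exceeded both. *Cxcl1* had TPM values of 6.77 (control) and 1.02 (6 hours) with sevoflurane and 3.40 (control) and 2.97 (6 hours) with desflurane. Both 6 hour values were below both control values, and the decrease with sevoflurane was 6.65-fold against its own control and 3.34-fold against the desflurane control. With desflurane, *Cxcl1* was 1.15-fold lower than in its own control and 2.28-fold lower than in the sevoflurane control. The coverage behind the lowest value was 1.72 reads per base. *Cxcl2*, *Cxcl3*, and *Cxcl6*, which encode other ligands of this class, and *Cxcr1* were listed at 0 throughout, and *Cxcr2* did not exceed 0.220 TPM.

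*Cxcl10* had TPM values of 12.2 (control) and 2.02 (6 hours) with sevoflurane and 7.09 (control) and 4.25 (6 hours) with desflurane. Again both 6 hour livers were below both controls, by 6.03-fold (own control) and 3.52-fold (other control) with sevoflurane, and by 1.67-fold (own control) and 2.86-fold (other control) with desflurane. *Cxcl9* and *Cxcl11* encode the other ligands of Cxcr3, and they lie next to *Cxcl10* on chromosome 14 (rn6, 17195395 to 17233743 for the 3 genes, plus strand). *Cxcl11* was at 28.7, 17.8, 20.7, and 22.2 TPM, and *Cxcl9* was at 21.6, 11.9, 17.5, and 17 TPM, in the same order. They were 1.61-fold and 1.82-fold lower with sevoflurane than in its own control, and with desflurane *Cxcl11* was 1.07-fold higher and *Cxcl9* 1.03-fold lower than in its own control. The 3 neighbors thus shared the order of the sevoflurane libraries, but only *Cxcl10* passed the 2-fold limit. The receptor *Cxcr3* was at 1.06, 0.978, 1.06, and 0.584 TPM. *Cxcl10* and *Cxcl11* lie within the span of *Art3* on the opposite strand, which did not exceed 0.492 TPM.

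The promoters of *Cxcl10* and *Cxcl1* are shown. These genes were lower in both 6 hour livers than in both controls and were called with sevoflurane against both controls. *Ccl4* and *Xcl1* also met these conditions and are not shown. The promoter of *Cxcl11* is shown because it is a neighbor of *Cxcl10* with a smaller decrease. That of *Ccl6* is shown because it is the most abundant gene that was called. Promoter sequences of RefSeq (GRCr8) were matched by symbol for 41 of the 53 members, and the 250 bases before the start of the gene are printed, 5′ to 3′ on the strand of the gene. Capitals mark matches on either strand to GAAA and GAAA with 2 bases between them, the core of the interferon-stimulated response element (ISRE), or to GGGA and TCC with 3 bases between them, a form of the NF-kB site. The windows are chr14:15988816-15989065 (plus strand) for *Cxcl10*, chr14:15973478-15973727 (plus strand) for *Cxcl11*, chr14:17479322-17479571 (minus strand) for *Cxcl1*, and chr10:68883367-68883616 (minus strand) for *Ccl6*.
Cxcl10: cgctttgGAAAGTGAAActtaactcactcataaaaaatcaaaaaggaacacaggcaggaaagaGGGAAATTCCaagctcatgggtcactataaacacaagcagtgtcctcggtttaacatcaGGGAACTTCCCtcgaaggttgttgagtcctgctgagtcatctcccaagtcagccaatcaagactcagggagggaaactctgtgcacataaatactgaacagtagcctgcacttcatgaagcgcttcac
Cxcl11: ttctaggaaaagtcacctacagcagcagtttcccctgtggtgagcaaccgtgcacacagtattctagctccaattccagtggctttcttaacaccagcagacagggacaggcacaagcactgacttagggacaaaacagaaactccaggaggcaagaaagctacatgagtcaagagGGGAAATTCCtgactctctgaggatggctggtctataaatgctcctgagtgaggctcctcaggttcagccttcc
Cxcl1: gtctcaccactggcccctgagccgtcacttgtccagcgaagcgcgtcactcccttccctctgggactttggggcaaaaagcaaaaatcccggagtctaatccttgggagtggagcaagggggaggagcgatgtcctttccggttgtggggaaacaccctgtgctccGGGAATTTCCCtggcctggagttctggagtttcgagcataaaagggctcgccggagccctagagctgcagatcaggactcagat
Ccl6: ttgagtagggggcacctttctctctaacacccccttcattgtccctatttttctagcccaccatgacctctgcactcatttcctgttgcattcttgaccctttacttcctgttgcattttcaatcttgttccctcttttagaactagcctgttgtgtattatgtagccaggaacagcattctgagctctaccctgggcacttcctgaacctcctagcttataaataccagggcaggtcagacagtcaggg
The window of *Cxcl10* held 1 ISRE match and 2 places with an NF-kB match. Those of *Cxcl11* and *Cxcl1* held the NF-kB form at 1 place each, and at the second place of *Cxcl10* and that of *Cxcl1*, overlapping matches were present on both strands. The window of *Ccl6* held neither. The NF-kB form was found in 8 of the 41 windows of the group (19.5%), compared with 3.38% of all 33469 windows, and the ISRE core in 2 of them (4.88%), compared with 3.41%. The 8 windows belong to *Cxcl1*, *Cxcl10*, *Cxcl11*, *Ccl24*, *Cxcl6*, *Ccl7*, *Ccl22*, and *Ccr3*, and the last 4 of these genes never exceeded 1 TPM. Of these genes, only *Cxcl1* and *Cxcl10* were called lower with sevoflurane against its own control. A match describes the letters in the window and not a site in use.

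The related ligands *Ccl3*, *Ccl4*, and *Ccl5* were not uniform. *Ccl4*, which attracts T cells, NK cells, and monocytes, was at 3.95 TPM (control) and 0.818 (6 hours) with sevoflurane and 2.14 (control) and 2.07 (6 hours) with desflurane. It was 4.83-fold lower with sevoflurane than in its own control and 2.62-fold lower than in the desflurane control, whereas the desflurane livers differed by 1.04-fold. *Ccl3*, a close relative that also acts on Ccr1, was at 3.13, 0.941, 1.40, and 0.952 TPM in the same order. Here both 6 hour livers were equally low, and the sevoflurane control was 2.24-fold above the desflurane control, so that the call depended on the control with either agent: *Ccl3* was 3.33-fold lower with sevoflurane and 3.29-fold lower with desflurane when the sevoflurane control was used, and 1.48-fold and 1.47-fold lower when the desflurane control was used. *Ccl5*, which is made by T and NK cells, was at 11, 9.39, 9.02, and 11.5 TPM, and these values lay within 1.28-fold of each other.

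*Xcl1*, which is released by T and NK cells and attracts cross-presenting dendritic cells through Xcr1, had TPM values of 3.38 (control) and 0.923 (6 hours) with sevoflurane and 2.38 (control) and 1.93 (6 hours) with desflurane. Both 6 hour livers were below both controls, and the decrease with sevoflurane was 3.66-fold against its own control and 2.58-fold against the desflurane control. With desflurane, it was 1.24-fold below its own control. *Xcr1* was between 0.155 and 0.716 TPM, with the lowest value after 6 hours of sevoflurane.

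The homeostatic ligands *Ccl19*, *Ccl21*, and *Ccl27* lie within 39.7 kb on chromosome 5 (rn6, 58159066 to 58198782, minus strand), and all 3 were lower after 6 hours of sevoflurane than in its own control. *Ccl21*, which with *Ccl19* guides T cells and dendritic cells that carry Ccr7, was at 6.08 TPM (control) and 2.43 (6 hours) with sevoflurane and 4.35 (control) and 3.32 (6 hours) with desflurane. It was 2.50-fold lower with sevoflurane and 1.31-fold lower with desflurane than in the respective controls. *Ccl27*, a ligand of Ccr10 best known from skin, was at 3.02, 1.49, 1.90, and 1.53 TPM, and its 2.03-fold decrease with sevoflurane was just past the limit. Its end overlaps *Il11ra1* on the opposite strand, which was between 14.5 and 15.4 TPM. *Ccl19* was at 2.37, 1.31, 1.42, and 1.5 TPM and was not called, with a 1.81-fold decrease with sevoflurane. In this neighborhood, the sevoflurane control was the highest and the 6 hour sevoflurane liver the lowest for each gene. *Ccr7* did not exceed 0.769 TPM and *Ccr10* did not exceed 0.334 TPM.

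Other ligands above 2 TPM were steadier or followed the control livers. *Cxcl16*, a ligand of Cxcr6 that guides NKT cells in the sinusoids, was at 6.40, 4.73, 6.87, and 5.33 TPM in sevoflurane control and 6 hour livers and desflurane control and 6 hour livers, respectively. Both 6 hour values were below both controls, but by no more than 1.45-fold. *Cxcr6* was at 1.27, 1.36, 1.93, and 1.30 TPM, and since it lies within *Fyco1* on the opposite strand, which was between 18.8 and 31.5 TPM, its low values are uncertain. *Cxcl13*, which guides B cells through Cxcr5, was at 2.60, 1.77, 3.80, and 3.15 TPM. It was called with sevoflurane only against the desflurane control, as a 2.15-fold decrease. *Ccl24*, which attracts eosinophils through Ccr3, was at 3.72, 2.59, 3.81, and 4.03 TPM, and *Ccr3* did not exceed 0.111 TPM. *Cxcl14*, a constitutive ligand, was at 2.26, 1.94, 0.715, and 0.886 TPM, so that both sevoflurane livers, control and anesthetized, were above both desflurane livers. Its difference of 3.17-fold between the controls was larger than its changes within either agent, which were 1.17-fold lower with sevoflurane and 1.24-fold higher with desflurane. Against the desflurane control, *Cxcl14* was 2.71-fold higher after 6 hours of sevoflurane, without reaching 2 TPM in that library, and was therefore not called.

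*Ackr2*, an atypical receptor that removes inflammatory CC chemokines, was the only gene of the group that was called higher after anesthesia. It had TPM values of 3.40 (control) and 3.40 (6 hours) with sevoflurane and 2.77 (control) and 8.97 (6 hours) with desflurane. The desflurane liver at 6 hours stood above the other 3 livers, which lay within 1.22-fold of each other, and the increase was 3.23-fold against its own control and 2.64-fold against the sevoflurane control. The coverage was 15.1 reads per base in this library and between 5.20 and 6.10 in the others. *Ackr2* is on the plus strand of chromosome 8 (rn6, 130540746 to 130542432), and the files also hold an assembled transcript on the opposite strand that spans both *Ackr2* and *Cyp8b1*, a sterol hydroxylase of bile acid synthesis whose nearer edge, the 3′ end of the annotated gene, lies 5986 bases away. This assembled transcript was at 69.0, 41.7, 75.7, and 91.1 TPM in the same order, and *Cyp8b1* was at 175, 130, 204, and 310 TPM. The strand setting of the counting is not given in the sources used here, and the part of reads from the opposite strand in the value of *Ackr2* was not tested.

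Of the 7 members that exceeded 1 TPM but not 2 TPM in some library, *Ccl2* and *Ccl12* encode ligands that attract monocytes. *Ccl2* was at 1.07, 0.602, 1.41, and 0.469 TPM in sevoflurane control and 6 hour livers and desflurane control and 6 hour livers, respectively, with both 6 hour values below both controls. *Ccl12* was at 0.817 and 1.43 TPM in the controls of sevoflurane and desflurane, was listed at 0 in the 6 hour sevoflurane liver, and was at 0.417 TPM in that of desflurane. The others were the receptors *Cxcr3*, *Cxcr4*, *Cxcr5*, *Cxcr6*, and *Cx3cr1*, of which *Cxcr5* was between 0.775 and 1.52 TPM and *Cx3cr1* between 0.747 and 1.0 TPM. No member of this class passed the TPM limit, and at a coverage of at most 3.62 reads per base their differences are poorly determined.

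Among the 25 members that never exceeded 1 TPM, the ligands *Ccl1*, *Ccl22*, and *Cx3cl1* had maxima of 0.613, 0.541, and 0.713 TPM, and *Ccl7*, *Ccl11*, *Ccl17*, *Ccl25*, *Ccl28*, and *Cxcl17* had maxima between 0.0181 and 0.388 TPM. The receptors *Ccr1l1*, *Ccr4*, *Ccr6*, and *Ccr9* had maxima between 0.0720 and 0.391 TPM. These levels are too low for a comparison between livers at this depth.

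The machinery that chemokine receptors use was examined with a list of 48 genes for G proteins and effectors, receptor desensitization, and other chemoattractants. With sevoflurane, 4 of these were called lower than in its own control and none was called higher, compared with 3.30% called lower and 2.23% called higher of all genes above the limit. Values lower than in its own control were found for 34 of all 48 genes, and 39 of the 48 exceeded 2 TPM in at least 1 library. Among all genes above 1 TPM in some library, 44.1% were lower. The sets are not alike, since 6 of the 48 genes stayed below 1 TPM in all libraries. *Rac2*, the Rac GTPase of blood cells that drives their migration, was at 29.6 TPM (control) and 8.74 (6 hours) with sevoflurane and 21.4 (control) and 17.8 (6 hours) with desflurane, a decrease of 3.38-fold with sevoflurane. The others were *Fgr*, a Src family kinase of myeloid cells (2.34-fold lower), *Rgs18*, a regulator of G protein signaling (2.37-fold lower), and *Cmklr1*, the receptor of chemerin (2.21-fold lower). With desflurane, *S1pr1*, a receptor of sphingosine 1-phosphate, was called lower than in its own control (80.4 and 37.2 TPM, 2.16-fold) and none was called higher, with 1.48% of all genes called lower and 2.79% higher. With sevoflurane, *S1pr1* was at 38 TPM, compared with 70.5 in its own control, a difference of 1.86-fold. The most abundant genes of these lists, the GTPase *Rhoa* (200 to 244 TPM) and *Rarres2*, which encodes chemerin (629 to 693 TPM), were not called with either agent.

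A list of 16 genes that control the induction of chemokines was examined as well. *Irf1*, a transcription factor of the interferon response, was called lower with both agents, with TPM values of 23.8 (control) and 4.71 (6 hours) with sevoflurane and 19.1 (control) and 8.65 (6 hours) with desflurane. *Irf7*, another factor of this response, was called lower with sevoflurane (2.21-fold). *Il1b* was called higher with desflurane, from 2.26 to 4.71 TPM, and was at 4.50 TPM in the sevoflurane control. In all, 3 genes of this list were called lower and none higher with sevoflurane than in its own control, and 1 was called lower and 1 higher with desflurane. The NF-kB genes *Nfkb1*, *Nfkb2*, *Rela*, and *Nfkbia* were not called with either agent. With sevoflurane, *Nfkb1* and *Rela* were 1.06-fold and 1.13-fold lower than in its own control. *Nfkb2* and *Nfkbia* were 1.06-fold and 1.61-fold higher. Of the 16 genes, 14 exceeded 2 TPM in at least 1 library. The shares of all genes called are those given for the preceding list.

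Markers of leukocytes moved in the same direction as the chemokine genes with sevoflurane. The summed TPM values of Kupffer cell and macrophage markers after 6 hours of sevoflurane were 0.599 times those of its own control. All 11 genes were lower, of which *Cd5l*, *Marco*, *Csf1r*, and *Adgre1* were called. Over all genes in this comparison, 3.30% were called lower and 2.23% higher. The 9 markers of all leukocytes summed to 122 TPM (control) and 72.2 (6 hours) with sevoflurane and 97.4 (control) and 94.5 (6 hours) with desflurane. With sevoflurane, 8 of the 9 were lower than in its own control, and *Ptprc* and *Cd53* were called. The remaining marker, *Cd52*, was 2.77-fold higher, at 0.946 TPM after 6 hours, and was not called. The 14 T and NK cell markers summed to 39.0, 25.7, 34.7, and 36.1 TPM, of which *Cd4*, which Kupffer cells also express in the rat, contributed 18.3 to 23.3 TPM, and the defining genes *Cd3d*, *Cd3e*, and *Cd3g* did not exceed 0.692 TPM. Lower with sevoflurane were 12 of the 14, and *Cd8a*, *Nkg7*, *Gzma*, and *Prf1* were called. The 6 B cell markers summed to 12.9, 6.64, 9.99, and 10.4 TPM, and 5 of the 6 were lower with sevoflurane than in its own control. Of these, *Cd79b* was called (9.63-fold lower). Against the desflurane control, *Cd5l*, *Marco*, *Ptprc*, and *Cd8a* were still called lower with sevoflurane, with 2.59% of all genes called lower. *Csf1r*, *Adgre1*, *Cd53*, *Nkg7*, *Gzma*, and *Prf1* were then 1.63-fold to 1.97-fold lower and were not called. *Cd79b* was 6.63-fold lower but did not reach 2 TPM in that control. The Kupffer cell and macrophage sum was then 0.757 times that of the control. The 9 neutrophil markers summed to 6.81, 5.01, 7.30, and 2.65 TPM, so that the sum with desflurane was 0.364 times that of its own control, with 6 of the 9 lower. None of them exceeded 1.98 TPM, so that none could be called, and *Camp* was listed at 0 in all libraries. Endothelial markers summed to between 274 and 313 TPM and stellate cell and fibroblast markers to between 324 and 367 TPM, with ratios of 0.962 and 1.11 for sevoflurane against its own control. Cholangiocyte markers summed to between 14.5 and 21.4 TPM. With desflurane, none of the Kupffer cell, pan-leukocyte, T and NK cell, and B cell markers was called against its own control. The part of these shifts in the chemokine values was not tested, and in tissue RNA, fewer cells of a type and less RNA per cell cannot be told apart.

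**Figure D3:**
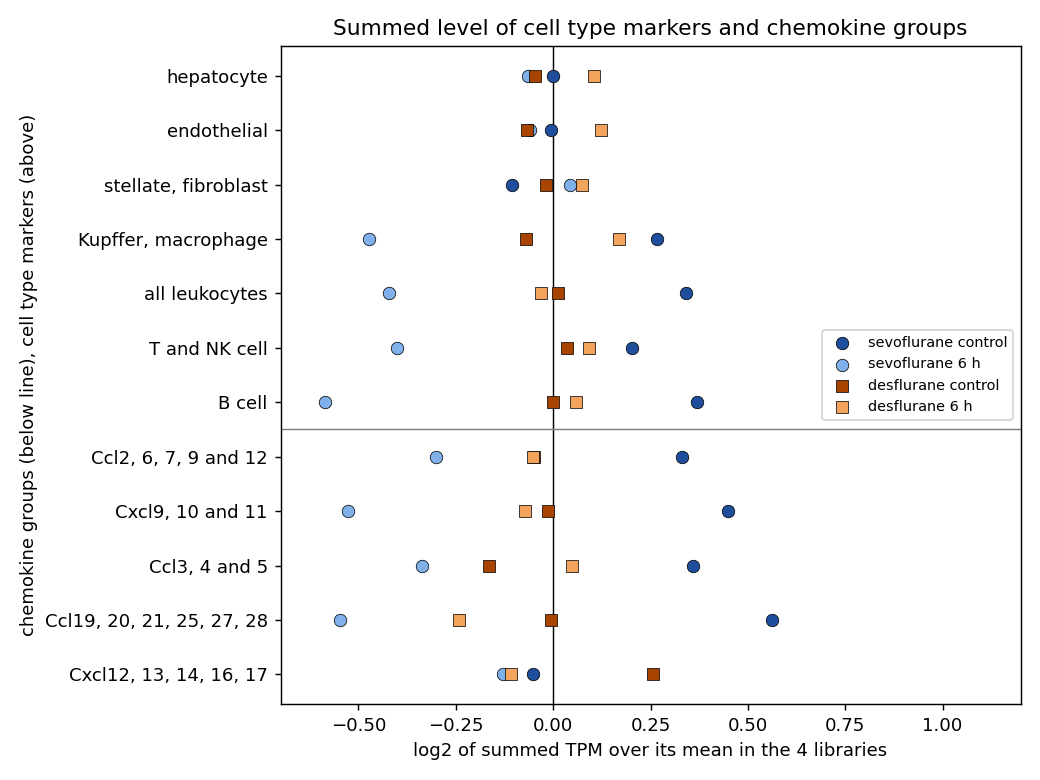
Log2 of the summed TPM of marker lists (above the line) and of the 5 groups of chemokine ligands with at least 3 members above 1 TPM (below the line) in each of the 4 libraries, relative to its mean over the libraries. The neutrophil and cholangiocyte lists are not plotted. Both were highest in the desflurane control and lowest after 6 hours of desflurane. Kupffer cell, pan-leukocyte, T and NK cell, and B cell markers and 4 of these 5 ligand groups are highest in the sevoflurane control and lowest after 6 hours of sevoflurane, whereas hepatocyte and endothelial sums stay within a narrow range.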

How the data were processed

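Liver RNA of 4 rats was sequenced by the authors with 101 bp paired reads from a ribosomal RNA depleted, stranded library. The authors trimmed the reads with sickle, mapped them to rn6 with HISAT2, sorted them with SAMtools, and quantified genes with StringTie, for which they used the refGene annotation of rn6. Per gene, the deposited files hold a coverage signal, FPKM values, and TPM values, and the deposited FPKM values were normalized by StringTie for length and library size. The strand setting is not given in the sources used here. In the deposited TPM signal, the assembled rows alone add up to 1000000, and the annotated rows add up to between 779824 and 813454.

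Annotated rows longer than 200 bp were kept and TPM values were summed by symbol, which left 16992 genes. All 53 members had 1 row each, and the length limit removed 0 of them. The calling rule, as in the methods of the study, was applied to the whole table, without a pseudocount, and percentages of all genes refer to genes above 2 TPM in either library compared. No tests were made. The values of 1 member above 2 TPM and of 1 gene of the induction list are not reported here, but both are included in the counts. Members and gene lists were chosen with earlier results of these data known. Genes named are those above 2 TPM in at least 1 library, with the others by range, and those listed for pathways and markers that were called or abundant. A few other genes of these lists are named where they qualify a count. Promoters were searched for both motifs after the values were known. The rule was tested on simulated data. Python 3.11.15, numpy 2.4.6, pandas 2.3.3, and matplotlib 3.10.9 were used. Alternatives covered the TPM and fold limits, a pseudocount, scaling, FPKM, length, the control, and assembled rows.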

Additional observations from a re-analysis of the deposited data

Results flagged for a closer look

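*Ccl6* differed from the own control in opposite directions with the agents, although by little with desflurane. It was 0.412 times its own control after 6 hours of sevoflurane and 1.09 times its own control after 6 hours of desflurane. This difference was not tested here, since each state has 1 sequenced liver. Against the control of the other agent, the values were 0.655 and 0.683. After median-of-ratios scaling, the ratios to the own control were 0.398 with sevoflurane and 0.996 with desflurane, so that the opposite direction was no longer present. In the 6 hour desflurane library, the assembled row that overlaps *Ccl6* on its strand was longer (rn6, chromosome 10, 70791735 to 70804966) and was at 38.7 TPM, whereas the annotated row was at 264 TPM. In the other 3 libraries, the assembled row had the same ends and the same TPM value as the annotated row. Apart from the sequencing, the paper measured *Ccl6* by quantitative PCR in replicate rats. It reported a decrease with sevoflurane but not with desflurane.

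The assembled transcript on the strand opposite *Ackr2*, which the comparisons of the report do not use, was at 91.1 TPM after 6 hours of desflurane, above the controls (69.0 and 75.7 TPM).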

How the results depend on the processing

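Median-of-ratios scaling and removal of the length limit left each count of called members within 1.5 times its main value. Without the TPM limit, sevoflurane gave 2 higher members against its own control and 3 higher and 10 lower members against the other control, and desflurane gave 6 lower members against its own control and 3 higher and 7 lower members against the other control. With a limit of 1 TPM, 2 members (*Ccl2* and *Ccl12*) were lower with desflurane against its own control, and 2 (*Cxcl14* and *Cxcr4*) were higher with sevoflurane against the other control. With a fold limit of 1.5, desflurane gave 2 higher and 1 lower member against its own control and 9 lower members against the other control, and sevoflurane gave 1 higher member against the other control. With a pseudocount of 1 TPM, 2 lower members remained for each agent against the other control. With FPKM values and the same limits, 4 and 1 members were lower with sevoflurane against its own and the other control, although *Ccl4*, *Xcl1*, and *Ccl3*, which lost their call by the limit on the level, had log2 changes of -2.32, -1.92, and -1.79 with FPKM values and -2.27, -1.87, and -1.73 with TPM values. With FPKM values, 10 members exceeded 1 after 6 hours of sevoflurane and 13 in each desflurane library. At a limit of 2 TPM, 13 members were counted after 6 hours of sevoflurane. With the mean of the controls, 2 members (*Ccl3* and *Cxcl10*) were lower with desflurane, and *Ccl6* and *Ccl27* no longer passed 2-fold with sevoflurane. When the other control was used, *Ccl3*, *Ccl6*, *Ccl21*, and *Ccl27* fell short of 2-fold with sevoflurane. None of the 9 members called against their own control changed direction with FPKM values, scaling, the mean of the controls, or the other control. *Cxcl14*, called lower with desflurane against the sevoflurane control, was 1.24-fold higher against its own control.

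Median log2 changes with a pseudocount of 0.1 TPM were -0.52 for sevoflurane against its own control, -0.43 for sevoflurane against the other control, and -0.53 for desflurane against the other control. For desflurane against its own control, median-of-ratios scaling gave -0.21 and moved all genes by -0.13 on the log2 scale (-0.10 against the other control), and for sevoflurane against the other control, members with a mean above 2 TPM gave -0.46. Of 93 member values above 1 TPM, 91 had an assembled row on the same strand, and 69 of these were within 1% of the annotated value. Adding both rows would count reads again and was not run. Using assembled rows instead, an alternative chosen after seeing the data, gave 1 lower member (*Ccl6*) with desflurane against its own control and 3 lower members with sevoflurane against the other control. The cause of these shifts was not tested. No paired analysis was possible because each condition has 1 library. Depth limits the low members most, and genes near 1 TPM rest on a coverage of a few reads per base.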
